A study of Mus musculus with 4 samples.

Results

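Megf6, Megf9, Megf10 and Megf11 are 4 of the 33641 genes given for each library of mouse cardiac fibroblasts, and they share the name "multiple EGF-like domains". They were taken by symbol, and the group was chosen by the TPM difference between treatments. The reason was that Megf6 had the largest increase with TGFbeta of any tested gene in log2(TPM + 1). Their values in that contrast are given as a description with no test. Levels were measured by RNA sequencing in 4 libraries, 2 of fibroblasts given 10 ng/ml TGFbeta and 2 of fibroblasts given vehicle. All cells came from hearts of wild-type C57BL/6J mice aged 12 weeks, were cultured to 80% confluency, took up 4-thiouridine at 20 and 4 h before crosslinking with 368 nm light, and carried no engineered allele according to the labels. TGFbeta drives fibroblasts toward myofibroblasts, the contractile cells that lay down scar matrix. The series describes RNA eluted from HuR, a protein that binds AU-rich stretches of RNA, whereas the sample labels describe total RNA in Trizol. The values are thus given as levels in these libraries, and nothing is said of binding. Whether replicates came from different cultures or animals is not labelled, so spreads and p-values measure these samples and may be technical.

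EGF-like domains are small folds held by disulfide bonds between cysteines, and they are strung in rows in many matrix proteins and cell surface receptors. Megf10 is a receptor of the cell surface that takes up apoptotic cells and synapses in the mouse brain, with complement C1q as a ligand, and it also acts in muscle progenitor cells. Megf11 is its close relative, and in the mouse retina both act in the spacing between neurons of the same type. Megf6 is a secreted protein of poorly known function, and Megf9 is a membrane protein first studied in the nervous system. Genes of this name are not 1 family by descent, since the name came from a screen for long proteins with EGF-like repeats.

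Megf6 was far higher with TGFbeta, while the other 3 members stayed within about a factor of 2 of vehicle in their means, given below. The Megf6 gene (ENSMUSG00000057751.14) lies on GRCm38 chromosome 4 from 154170730 to 154275713 on the plus strand. Its transcript level was 175 and 123 TPM in the TGFbeta libraries, against 7.53 and 7.21 TPM in the vehicle libraries. TPM is a transcript's share of all transcripts in a library, corrected for transcript length, so levels of different genes can be compared. Both TGFbeta libraries lay above both vehicle libraries, and the gap between groups was far wider than the gap between replicates. The mean was 149 ± 37.0 TPM with TGFbeta and 7.37 ± 0.230 TPM with vehicle (SD, n = 2 each), a ratio of 20.3. Its log2 change, the difference between group means of log2(TPM + 1), was 4.14, which ranked 1 of 15815 tested genes. In the TGFbeta libraries Megf6 lay above 94.4% and 91.2% of tested genes, and in the vehicle libraries above 33.5% and 33.8%. Among the TGFbeta libraries the higher exceeded the lower by a factor of 1.42, and among the vehicle libraries by 1.05. In bulk samples more expressing cells and more RNA per cell cannot be told apart. If the libraries hold RNA eluted from HuR, a change in the share recovered cannot be told apart from these either.

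**Figure D1:**
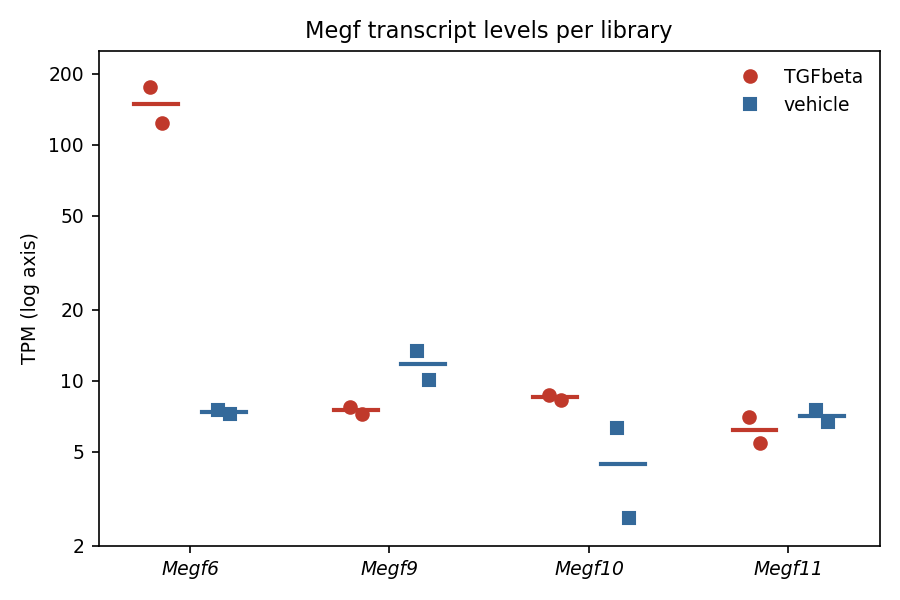
TPM of Megf6, Megf9, Megf10 and Megf11 in each library on a log axis, with TGFbeta libraries as circles and vehicle libraries as squares; short lines are means of 2 libraries. The 2 TGFbeta points of Megf6 (175 and 123 TPM) stand apart from all others, which lie between 2.62 and 13.4 TPM.

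Megf10 leaned the same way at a much lower level. It lies on chromosome 18 from 57133090 to 57297467 on the plus strand (ENSMUSG00000024593.15). It had 8.73 and 8.30 TPM in the TGFbeta libraries, against 6.28 and 2.62 TPM in the vehicle libraries. The groups did not overlap, but the vehicle libraries differed from each other by a factor of 2.40, more than the ratio of the group means, which was 1.92. The log2 change was 0.89, and it depended on which vehicle library was used: it was 1.40 without vehicle 1 and 0.39 without vehicle 2.

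Megf9 leaned the other way. Its gene (ENSMUSG00000039270.9) is on chromosome 4 from 70427065 to 70534995 on the minus strand, far from Megf6. It had 7.74 and 7.25 TPM with TGFbeta, against 13.4 and 10.1 TPM with vehicle. The groups did not overlap, and the ratio of means was 0.639, with a log2 change of -0.57. Over all tested genes the log2 change had a median of -0.13, but it depended on scaling and was 0.015 after quantile normalization and 0.016 after median scaling. The 100 most abundant genes held 29.8% and 27.0% of all TPM with TGFbeta, against 23.3% and 24.4% with vehicle, and the part of this in the median was not tested. Relative to the median of -0.13 Megf9 stood at -0.45, and under those scalings its own change was -0.40 and -0.42.

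Megf11 showed no separation. It lies on chromosome 9 from 64385626 to 64709205 on the plus strand (ENSMUSG00000036466.17). Its levels were 6.99 and 5.42 TPM with TGFbeta and 7.54 and 6.65 TPM with vehicle, so the groups overlapped. The log2 change of -0.17 was near the median of all tested genes, and it was 0.00901 after quantile normalization.

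All 4 members passed the filter of a mean of at least 1 TPM. Megf6 and Megf10 had separated libraries in the higher direction, Megf9 in the lower, and Megf11 in neither. Of all tested genes, 15.5% were separated in the higher direction and 39.8% in the lower, 55.3% together, so separation alone is common in these 4 libraries. The size of the Megf6 change in log2(TPM + 1) is what sets it apart within the table, and that size is also what chose it.

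**Figure D2:**
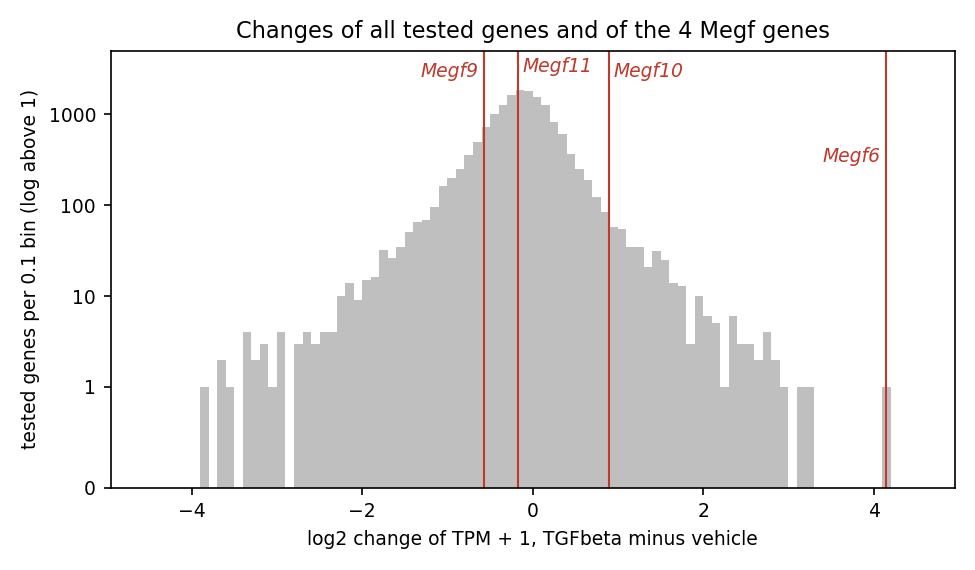
Distribution of the log2 change in TPM + 1, TGFbeta minus vehicle, over 15815 tested genes in bins of 0.1, with vertical lines at the 4 Megf genes. Megf6, at 4.14, is at the far right end, Megf10 is at 0.89, Megf11 at -0.17 and Megf9 at -0.57.

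The order of the members differed between treatments. With TGFbeta the order by mean was Megf6, Megf10 (8.52 ± 0.305 TPM), Megf9 (7.50 ± 0.345 TPM) and Megf11 (6.21 ± 1.11 TPM; SD, n = 2 each). With vehicle it was Megf9 (11.7 ± 2.30 TPM), Megf6, Megf11 (7.10 ± 0.628 TPM) and Megf10 (4.45 ± 2.59 TPM; SD, n = 2 each). Neighbours in these orders did not overlap between libraries, except Megf6 and Megf11 with vehicle. Megf10 and Megf11 with vehicle were close to overlapping, with the higher Megf10 library at 6.28 TPM and the lower Megf11 library at 6.65 TPM. In the TGFbeta libraries Megf6 made up 88.2% and 85.4% of the summed TPM of the 4 genes, against 21.7% and 27.1% in the vehicle libraries.

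The annotated sequences show how unlike the members are. Proteins were translated from 1 GENCODE M21 transcript per gene. Megf6 has 1572 residues, Megf9 600, Megf10 1147 and Megf11 1091. Cysteine made up 15.9% of residues in Megf6, 12.9% in Megf10, 13.6% in Megf11 and 7% in Megf9, against a median of 2.12% over 21557 mouse proteins. An EGF-like cysteine pattern was counted: 2 cysteines with 1 residue between them, then 2 residues of any kind, glycine or proline, an aromatic residue, and after 4 to 8 more residues a further cysteine. Megf6 held 23 such patterns, Megf10 and Megf11 17 each, and Megf9 1. Of all proteins 1.15% held any, and 6, counting Megf6, held as many as Megf6 or more. Megf9 thus carries the name with few repeats that fit this pattern. Megf10 and Megf11 were identical at 62.1% of aligned residues, and Megf6 reached 37.0% with Megf10 and 40.0% with Megf11. The most hydrophobic window of 19 residues after residue 60 scored 0.974 in Megf6 on the Kyte-Doolittle scale, against 3.30 in Megf9, 3.48 in Megf10 and 3.05 in Megf11, which are membrane proteins. No stretch of 31 bases was shared between transcripts of different members, and Megf6 shared 0 of 7987 with any other annotated gene. That count covers exact matches of 31 bases, and sharing of shorter or mismatched reads was not tested.

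**Figure D3:**
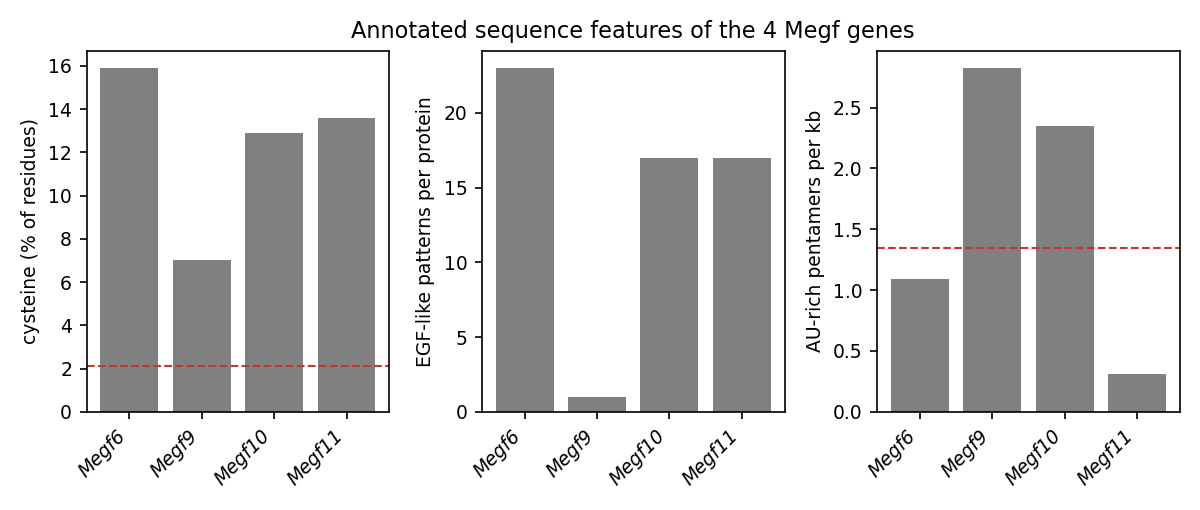
Bars for the 4 Megf genes: share of cysteine in the protein (%), number of EGF-like cysteine patterns, and AU-rich pentamers per kilobase of the 3′ UTR; dashed lines mark the median over 21557 proteins (left) and over 12772 tested genes (right). Megf6 has the most cysteine (15.9%) and patterns (23), and Megf9 the most pentamers (2.83 per kb).

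Because the series is about HuR, AU-rich letters in the 3′ UTRs were counted. The pentamer ATTTA, read on the transcript strand, occurred 2 times in the 1838 bases of the Megf6 3′ UTR, 17 times in the 6015 bases of Megf9, 8 times in the 3412 bases of Megf10 and 1 time in the 3255 bases of Megf11. Per kilobase this was 1.09 for Megf6, 2.83 for Megf9, 2.35 for Megf10 and 0.307 for Megf11, beside a median of 1.35 over 12772 tested genes. Of those genes 69.6% held at least 1. The U-rich letters TTTNTTT occurred 2, 11, 17 and 0 times in Megf6, Megf9, Megf10 and Megf11, or 1.09, 1.83, 4.98 and 0 times per kilobase. The median over the same 12772 genes was 1.85 per kilobase, and 69.1% held at least 1. Both matches in Megf6 overlapped in the T run at its annotated end. The annotation marks the end of the Megf9 transcript as not found. A match is a description of the letters and says nothing of HuR. Sites of Megf6, Megf11 and Megf9 are printed because such letters are the ones HuR is known for, with ATTTA in capitals, written as DNA on the transcript strand. The Megf6 window is chr4:154274282-154274311, plus strand, and holds both of its pentamers. The Megf11 window is chr9:64706958-64706982, plus strand, its single one. The Megf9 window is chr4:70431874-70431898, minus strand, 1 of 17.
Megf6: gaccatATTTAtataaggtATTTAtgggca
Megf11: aaagctatgtATTTAatattctgaa
Megf9: cccataaaatATTTAtgtgcctccc

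The promoter table of RefSeq (GRCm38.p6), from 250 bases before to 50 after the annotated start, had entries for 2 members, Megf6 and Megf9. They are shown because these members share a chromosome and leaned in opposite directions. Capitals mark CAGAC, the short letters that Smad3 and Smad4, the transcription factors of the TGF-beta pathway, are known to bind, searched on both strands (GTCTG on the other). The Megf6 window, chr4:154170463-154170762, plus strand, held 3 of them, beginning at positions -244, -83 and 45 relative to the start. The Megf9 window, chr4:70534879-70535178, minus strand, held 1, beginning at position -162.
Megf6: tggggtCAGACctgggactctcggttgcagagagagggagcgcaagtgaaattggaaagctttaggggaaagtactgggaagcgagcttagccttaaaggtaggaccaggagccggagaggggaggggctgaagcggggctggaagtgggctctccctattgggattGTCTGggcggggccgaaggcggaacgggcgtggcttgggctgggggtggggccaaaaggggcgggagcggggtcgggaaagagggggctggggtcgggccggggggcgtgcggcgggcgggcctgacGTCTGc
Megf9: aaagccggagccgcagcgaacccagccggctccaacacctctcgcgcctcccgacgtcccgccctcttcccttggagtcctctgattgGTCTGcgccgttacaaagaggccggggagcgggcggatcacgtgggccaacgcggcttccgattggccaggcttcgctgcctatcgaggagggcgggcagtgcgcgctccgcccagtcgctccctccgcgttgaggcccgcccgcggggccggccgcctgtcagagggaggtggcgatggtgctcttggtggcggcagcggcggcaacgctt

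CAGAC is common: 49.6% of 32851 promoter windows of this length held it on either strand, and 3.90% held at least 3. The full palindrome GTCTAGAC was in 0.213% of windows and in neither of these. The AP-1 letters TGANTCA (7.81% of windows) and the TATAAA letters (13.6%) were also in neither, and the letters GGCGC (36.9%) occurred 2 times in Megf9 and not in Megf6. Both windows were rich in G and C, with 67.0% in Megf6 and 71.0% in Megf9 against a median of 52.7%. These letters are a description of the windows and not sites or causes.

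The tested genes beside Megf6 had much smaller differences, with log2 changes from -0.60 to 1.20. Of its 5 nearest protein-coding genes on each side, 5 were tested and 0 were called (limma, adjusted p under 0.05; 2 at an unadjusted p under 0.05), where 5.92% of all tested genes were called, 1.54% higher and 4.38% lower. Wrap73, which lies 3.3 kb before Megf6 and encodes a WD-repeat protein, had 17.7 and 18.6 TPM with TGFbeta, against 22.6 and 21.2 TPM with vehicle, with a log2 change of -0.26 (limma adjusted p = 0.346). For Smim1, which encodes a small membrane protein, the log2 change was -0.60 (limma adjusted p = 0.0637). Arhgef16, which encodes a guanine nucleotide exchange factor, is the nearest gene after Megf6, at 2.8 kb and on the opposite strand, so that both genes end toward each other. It had 2.70 and 1.39 TPM with TGFbeta, against 0.279 and 0.311 TPM with vehicle. The groups did not overlap, and the log2 change of 1.20 did not pass the test (SE 0.29, limma adjusted p = 0.0657), although it did in a robust fit (limma adjusted p = 0.0461). Whether the reads were counted by strand is not given in the sources used here, and a part of reads beyond the end of Megf6 in the Arhgef16 value was not tested. Around all 4 members, 26 of 40 neighbours were tested and 0 were called by limma (6 at an unadjusted p under 0.05), with log2 changes from -0.81 to 1.20. A pseudogene inside the Megf6 gene, Gm13132, is the single annotated gene that overlaps any member, and it was listed at 0 in all 4 libraries.

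**Figure D4:**
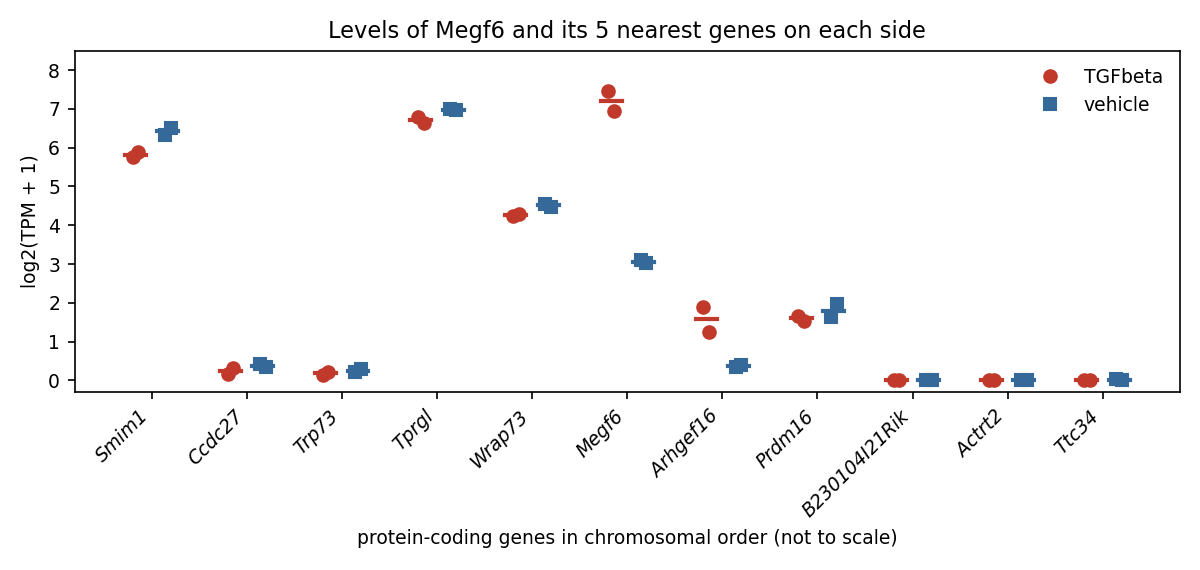
Levels as log2(TPM + 1) of Megf6 and the 5 nearest protein-coding genes on each side in chromosomal order, with TGFbeta libraries as circles, vehicle libraries as squares and means as short lines. Megf6 shows the wide gap of 4.14 between groups; of the neighbours, Arhgef16 has the next widest, 1.20.

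The genes whose pattern over the 4 libraries was nearest to Megf6 were Fgf21, Mtnr1a, Rflnb, Notch4 and Acan. Nearness was the Euclidean distance between mean-centred log2(TPM + 1) values over 4 libraries, among 10513 genes with a mean of at least 5 TPM, and it ran from 1.07 for Fgf21 to 1.46 for Acan. Fgf21, which encodes an endocrine growth factor, had 11.5 and 13.4 TPM with TGFbeta, against 0.427 and 0.483 TPM with vehicle. The ratios of group means of Fgf21 (27.3) and Mtnr1a (24.8) were above that of Megf6 (20.3). Rflnb, which encodes a partner of filamin, had 149.8 and 149.2 TPM with TGFbeta, against 21.3 and 20.9 TPM with vehicle. Notch4, a Notch receptor whose outer part is itself a row of EGF-like repeats, had 151 and 106 TPM with TGFbeta, against 20.8 and 15.8 TPM with vehicle. In Notch4 as in Megf6, TGFbeta 1 was the higher of its pair, whereas in Fgf21 it was the lower.

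A list of 8 other genes that carry or once carried a Megf number includes Slit3, Lrp4 and Pear1. Of the 8, 4 were tested: 1 fell, 0 rose and 3 did not pass, where 4.38% of all tested genes fell and 1.54% rose. A single call among 4 genes is no result about the list. Their median log2 change was -0.56, beside -0.13 for all tested genes (-0.41 after either other scaling). Slit3, which encodes a secreted guidance protein, had 33.3 and 32.8 TPM with TGFbeta, against 57.7 and 62.9 TPM with vehicle, and it fell by 0.85 on the log2 scale (SE 0.13, limma adjusted p = 0.0268). That call was lost after median scaling, without an intensity trend, with the replicate block and with each library left out. Pear1, a platelet and endothelial receptor identical to Megf10 at 49.4% of aligned residues, had 63.4 and 50.8 TPM with TGFbeta, against 73.0 and 86.4 TPM with vehicle, and did not pass (log2 change -0.48, limma adjusted p = 0.155). Lrp4, a receptor of the LDL family known from the neuromuscular junction, did not pass either (log2 change -0.65, limma adjusted p = 0.0910).

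Genes of proteins with many EGF-like patterns were called in both directions. A group of genes with at least 10 patterns was defined by sequence, but it was added after the data were seen. Of its 18 tested genes other than the members, 2 rose, 3 fell and 13 did not pass, with a median log2 change of -0.17. That is 27.8% called, against 5.92% of all tested genes. Notch4 rose by 2.73 (SE 0.22, limma adjusted p = 0.00633) and Ltbp2, a protein of elastic microfibrils, by 2.38 (SE 0.29, limma adjusted p = 0.0140). Notch3, a Notch receptor known from smooth muscle, fell by 1.99 (SE 0.16, limma adjusted p = 0.00633). Notch3 had 21.1 and 17.4 TPM with TGFbeta, against 74.0 and 83.9 TPM with vehicle. Jag1, a ligand of Notch receptors, fell by 1.14 (SE 0.14, limma adjusted p = 0.0144) and Tnxb, a tenascin of connective tissue, by 2.92 (SE 0.40, limma adjusted p = 0.0197). The Tnxb levels were 6.08 and 4.36 TPM with TGFbeta, against 29.5 and 70.6 TPM with vehicle, so the vehicle libraries differed by more than a factor of 2. Of the 5 with at least as many patterns as Megf6 (Fbn1, Fbn2, Notch1, Notch2 and Notch3), Notch3 was the single one called. Of the 18, 3 were called when TGFbeta 1 was left out, 4 when TGFbeta 2 was, and 0 when either vehicle library was. Notch4, Ltbp2 and Notch3 kept their calls without either TGFbeta library, and Tnxb and Jag1 lost theirs.

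**Figure D5:**
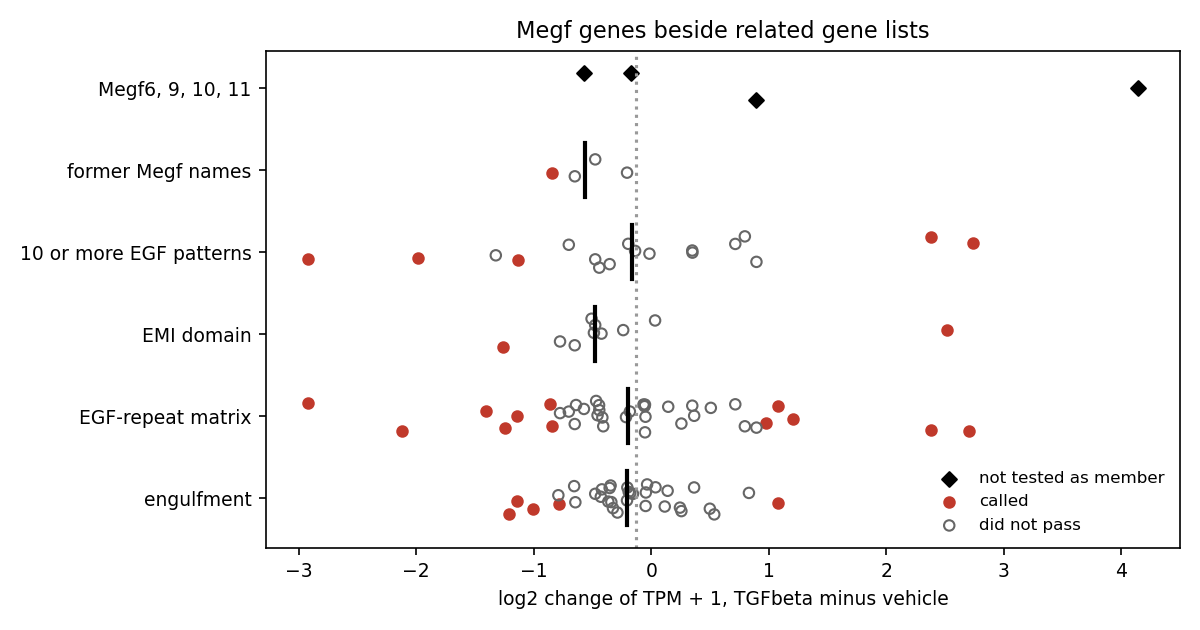
log2 change in TPM + 1, TGFbeta minus vehicle, of each tested gene in 5 related lists and of the 4 Megf genes (diamonds, not tested). Filled points passed limma at an adjusted p under 0.05, open points did not; bars are list medians and the dotted line is the median of all tested genes (-0.13). Each list except the former Megf names holds called genes on both sides of 0.

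Megf6, Megf10 and Megf11 begin with an EMI domain, a cysteine-rich fold. Of 10 tested genes that share it, 1 rose, 1 fell and 8 did not pass, 20% called against 5.92% of all tested genes. The median log2 change was -0.48 (-0.35 after quantile normalization and -0.32 after median scaling). Of the 10, 8 had libraries separated in the lower direction, as had 39.8% of all tested genes. Postn, the matrix protein periostin and a marker of activated fibroblasts, had 984 and 1326 TPM with TGFbeta, against 222 and 177 TPM with vehicle, and rose by 2.52 (SE 0.20, limma adjusted p = 0.00633). Emilin2, which encodes a glycoprotein of elastic fibres, had 8.30 and 6.08 TPM with TGFbeta, against 18.2 and 18.7 TPM with vehicle, and fell by 1.26 (SE 0.19, limma adjusted p = 0.0255). Its more abundant relative Emilin1 had 557 and 504 TPM with TGFbeta, against 697 and 725 TPM with vehicle, and did not pass (log2 change -0.42, limma adjusted p = 0.136). The Emilin2 call was lost without either TGFbeta library, and both calls were lost without either vehicle library.

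Among 38 tested matrix genes with EGF-like repeats, 5 rose, 7 fell and 26 did not pass, 31.6% called against 5.92% of all tested genes. The lists share genes and were chosen with earlier results of these data known, so their shares are descriptions and not separate observations. The 5.92% is over tested genes of every level and was not matched for abundance. Slit3, Ltbp2 and Tnxb, called in lists above, are among these calls, as is Thbs1 of the engulfment list below. The median log2 change was -0.20 (-0.12 after quantile normalization and -0.05 after median scaling). Acan, which encodes the cartilage proteoglycan aggrecan, had 13.7 and 10.7 TPM with TGFbeta, against 1.22 and 0.827 TPM with vehicle, and rose by 2.70 (SE 0.22, limma adjusted p = 0.00633). Efemp1, which encodes a fibulin, had 35.7 and 82.3 TPM with TGFbeta, against 234 and 244 TPM with vehicle, and fell by 2.12 (SE 0.36, limma adjusted p = 0.0316). Of these 12 called genes, 4 kept the call when TGFbeta 1 was left out, 3 when TGFbeta 2 was, and 0 when either vehicle library was. The Efemp1 call was also lost in the robust fit and with no trend term.

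For the engulfment of dying cells, in which Megf10 is a receptor, 34 genes of 40 were tested: 1 rose, 4 fell and 29 did not pass, 14.7% called against 5.92% of all tested genes (1.54% higher and 4.38% lower). The median log2 change was -0.20 (-0.12 after quantile normalization and -0.04 after median scaling). The C1q subunit genes C1qa, C1qb and C1qc, whose product is a Megf10 ligand, lay between 1.54 and 2.71 TPM with TGFbeta and reached at most 3.90 TPM with vehicle. Mertk, an engulfment receptor kinase, had 4.01 and 4.54 TPM with TGFbeta, against 11.2 and 10.2 TPM with vehicle, and fell by 1.15 (SE 0.18, limma adjusted p = 0.0268). Its ligand gene Gas6 fell by 0.78 (limma adjusted p = 0.0380) and Elmo1, which activates Rac downstream of such receptors, by 1.01 (SE 0.16, limma adjusted p = 0.0274). Abca7, a lipid transporter of the ABC family, fell by 1.21 (SE 0.18, limma adjusted p = 0.0237). Thbs1, which encodes thrombospondin, a matrix protein that also bridges dying cells to phagocytes, had 915 and 906 TPM with TGFbeta, against 505 and 365 TPM with vehicle, and rose by 1.08 (SE 0.19, limma adjusted p = 0.0337). All 5 calls were lost with any 1 library left out, that of Gas6 also after median scaling, under the replicate block and with no trend term, that of Thbs1 with no trend term, and that of Elmo1 with the block.

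The labelled cell type carried its markers: the 8 fibroblast markers summed to 8945 to 11034 TPM in the TGFbeta libraries and 6628 to 8296 TPM in the vehicle libraries, a sum carried by Col1a1 (6221 and 4272 TPM with TGFbeta, against 3148 and 2392 TPM with vehicle) and Col1a2. Of the 8, 5 had lower means on the log scale with TGFbeta, with a median log2 change of -0.32. Libraries of Pdgfra, Tcf21, Dcn and Ddr2 were separated in the lower direction, as were those of 39.8% of all tested genes. Libraries of Col1a1 and Col1a2 were separated in the higher direction, as were those of 15.5%. Pdgfra and Tcf21 fell by 1.42 (limma adjusted p = 0.0106) and 1.11 (limma adjusted p = 0.0148). Acta2, which encodes smooth muscle actin and marks myofibroblasts, rose by 1.03 (limma adjusted p = 0.0293; 0.0542 after quantile normalization). Markers of other cells had far lower sums, but some were above the vehicle level of Megf6. Tnnt2, a cardiomyocyte marker, had 35.2 and 34.6 TPM with TGFbeta, against 47.0 and 81.4 TPM with vehicle. Lyz2, a macrophage marker, had 42.9 and 48.1 TPM with TGFbeta, against 55.2 and 66.4 TPM with vehicle. Tnnt2 and Lyz2 were each the largest single value in their sums, and other markers of these cells did not all follow them. Actn2 had 15.5 and 18.2 TPM with TGFbeta, against 15.7 and 17.5 TPM with vehicle. Myh6, Ryr2 and Myl2 reached at most 1.10 TPM in any library. Libraries of Tnni3 and Cd68 were separated in the lower direction, as were those of Tnnt2 and Lyz2, and those of C1qb in the higher. The 6 pericyte and smooth muscle markers summed to 33.5 and 39.3 TPM with TGFbeta, against 24.0 and 22.0 TPM with vehicle. That sum was highest in TGFbeta 2, whereas Megf6 was highest in TGFbeta 1. Cspg4 had 22.5 and 16.7 TPM with TGFbeta, against 12.4 and 10.7 TPM with vehicle. Rgs5 had 13.5 TPM in TGFbeta 2 against 1.95 TPM in TGFbeta 1. Libraries of Cspg4 and Myh11 were separated in the higher direction, those of Des, Abcc9 and Kcnj8 in the lower, and those of Rgs5 in neither. The 7 endothelial markers summed to 40.5 and 41.2 TPM with TGFbeta, against 44.3 and 47.8 TPM with vehicle. The 8 markers of macrophages and leukocytes summed to 64.7 and 68.9 TPM with TGFbeta, against 77.2 and 96.9 TPM with vehicle. The 7 cardiomyocyte markers summed to 66.9 and 72.1 TPM with TGFbeta, against 85.3 and 129 TPM with vehicle, and the 6 of Schwann cells and glia to 8.87 and 8.41 TPM with TGFbeta, against 8.78 and 12.8 TPM with vehicle. All of these but the pericyte sum and the glial sum were thus lower with TGFbeta in both libraries, and the glial sums overlapped. Of these markers, 6 endothelial, 8 macrophage and leukocyte, 4 cardiomyocyte, 4 pericyte and 3 glial ones were tested. By limma 0 were called (5 at an unadjusted p under 0.05), against 5.92% of all tested genes. A count of 0 among so few is no result about these cells, and the part of these markers in the Megf values was not tested. Of 4 markers of muscle progenitors, cells in which Megf10 is known, Myf5 and Myod1 were at 0 in all libraries, and the sum was at most 0.0121 TPM with TGFbeta and 0.0502 TPM with vehicle.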

How the data were processed

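The authors deposited 1 TPM value per gene symbol and library, per the file headers, and the totals were checked to be equal. For the aligner, the quantifier and the build, nothing is given in the sources used here. Since read numbers cannot be had from TPM, the depth is unknown and no counting intervals were made. Log2(TPM + 1) of the 15815 genes that averaged at least 1 TPM was compared with limma 3.58.1 in R 4.3.3 (eBayes with an intensity trend, treatment as the single term, two-sided, Benjamini-Hochberg over all tested genes, called at 0.05), using 2 TGFbeta and 2 vehicle libraries. limma was tested on simulated data. An exact permutation test of 4 libraries cannot go below p = 0.333 and was not used. Members and lists were chosen with earlier results of these data known; the list of genes with 10 or more EGF-like patterns was added after seeing the data. Named genes were, per list, the 4 called genes with the largest change, filled up with the most abundant, and the 5 nearest to Megf6. Gas6, Jag1, Notch3, the C1q genes and the neighbours were named after their values were seen. So were single markers of other cells, such as Rgs5, Cspg4, Tnnt2 and Lyz2. Positions and transcripts are from GENCODE M21 (GRCm38), matched by symbol for 32159 of 33641 genes; the build of the deposited values is unknown, so positions are those of the annotation. Sequences were handled with Biopython 1.88. Values of 1 listed gene are not reported here. The 13 alternatives are described in the closing section.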

Additional observations from a re-analysis of the deposited data

How the results depend on the processing

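The log2 change of Megf6 ran from 3.62 to 4.40 over 13 alternatives, that of Megf9 from -0.76 to -0.39, that of Megf10 from 0.39 to 1.40 and that of Megf11 from -0.33 to 0.00901. Megf6 moved beyond its replicate spread with a pseudocount of 5 (3.62), and Megf11 after quantile normalization (0.00901), where its sign turned. With a pseudocount of 0.1 the log2 changes of Fgf21 (4.49) and Mtnr1a (4.39) were above that of Megf6 (4.30). The first rank of Megf6 thus depends on the pseudocount. Genes called by limma numbered 936, 244 higher and 692 lower. With every gene above 0 tested, 0 were called in all (4348 at an unadjusted p under 0.05), and 0 in every list: former Megf names, EMI domain, EGF-repeat matrix, engulfment and at least 10 EGF-like patterns. Lower calls numbered 401 after quantile normalization, 399 after median scaling (410 higher) and 437 of 602 without an intensity trend. Former Megf names had 0 called after median scaling, with no trend term and under the replicate block; with no trend term 7 matrix and 3 engulfment genes were called. At least 10 patterns gave 8 called in the robust fit and 8 among genes averaging 5 TPM or more. Leaving out 1 library gave 0 to 203 called genes, 0 to 65 higher and 0 to 138 lower; lists ranged from 0 to 0 (former names), 0 to 1 (EMI), 0 to 4 (matrix), 0 to 0 (engulfment) and 0 to 4 (10 patterns). The zeros fell on both vehicle libraries, with 3033 and 2407 genes at an unadjusted p under 0.05, and on both TGFbeta libraries for former names and engulfment; the lone library of a group is then assumed to vary like the other group. Of 454 further values for named genes, 321 kept direction and call, 131 lost the call and 2 gained it (Col1a1 among genes averaging 5 TPM or more, Arhgef16 in the robust fit), and 0 turned sign.

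Replicate numbers were shared between groups, but the deviations of equally numbered libraries correlated at r = -0.05 across genes. That shows no pairing over all genes together, and pairing in a part of the genes was not tested. The labels do not say whether a number marks a shared culture, animal or day. With the replicate block, lower calls numbered 445 and engulfment calls 3. The cause of each loss was not tested, apart from the fewer samples when a library is left out. Read depth is unknown, so the precision of low values such as those of Arhgef16 and Megf10 cannot be stated.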
